A study of Mus musculus with 800 samples.

Results

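Expression of 9 genes of the Wnt pathway was examined in single cells of the mouse retina. They were chosen by name from 49585 gene rows and comprise the secreted inhibitors Sfrp1, Sfrp2 and Dkk3, the receptors Fzd3 and Fzd5, the ligands Wnt5a and Wnt7b, the feedback gene Axin2 and the nuclear factor Lef1. The cells came from 30 pooled retinas of C57BL/6 mice carrying Sert-Cre, taken at embryonic stage E15.5. Its Cre recombinase is driven by the gene of the serotonin transporter, Slc6a4, which in the developing mouse retina is known from ganglion cells whose axons do not cross at the optic chiasm. Papain-dissociated cells were sorted by flow cytometry and are labelled Tomato+ (400 cells) or Tomato- (400 cells), with genotype, strain and stage otherwise shared. The labels describe neither the reporter allele, nor the sorting gate, nor the animal behind a cell. Each group was therefore 1 pool without replicates, and no test between groups was made.

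Wnt proteins are lipid-modified ligands that bind Frizzled receptors. In one branch the signal stabilises beta-catenin, which activates genes together with factors of the Tcf and Lef family, and Axin2 is a widely used feedback target of that branch. Other branches act on cell polarity and axon growth, for which Fzd3 is a known receptor in mouse neurons. Secreted frizzled-related proteins such as Sfrp1 and Sfrp2 bind Wnt ligands outside the cell, and Dkk3 is a divergent member of the Dickkopf family of secreted proteins. In the developing eye Wnt signalling is best known from the ciliary margin and the blood vessels, and Fzd5 is known to take part in eye development.

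A limit of 20% mitochondrially encoded counts left out 73 of the 400 Tomato+ and 38 of the 400 Tomato- cells. Kept cells held 9653 to 644293 counts in Tomato+ (median 271789) and 16826 to 689788 in Tomato- (median 243410). The label was checked with Slc6a4, which stood at 103.8 CPM (summed counts scaled to the total of the set) in Tomato+ and at 0.55 CPM in those labelled Tomato-. A cell with at least 5 counts of a gene is called positive for it below. Among kept Tomato- cells, 54.1% were positive for Fgf15, which marks progenitors of the retina and encodes a growth factor, 12.7% (46 cells) for Atoh7, a factor needed for ganglion cell fate, and 25.7% (93 cells) for Pou4f2, a ganglion cell factor. Among kept Tomato+ cells, 64.8% were positive for Pou4f2, 2.75% (9 cells) for Fgf15 and 0.92% (3 cells) for Atoh7, the last too few to describe. A cell may count in several sets, and 27 Tomato- cells, 29.03% of the Pou4f2-positive ones, were also positive for Fgf15. Cell titles carry a number, called the title number here, from 1 to 10 in Tomato+ and 11 to 20 in Tomato- cells, with 40 cells each before filtering. The spread over title numbers is given with the levels in the 2 groups and in the main marker-positive sets, and not with those of smaller sets. It is not a spread over animals, and title number and label cannot be told apart. The share of all genes whose title numbers do not overlap was not computed. A lack of overlap is therefore a description of the gene named only.

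The genes lie on 7 chromosomes in the GRCm38.p6 build. Sfrp1 lies on chromosome 8 (23411383 to 23449632), Sfrp2 on chromosome 3 (83765750 to 83774314) and Dkk3 on chromosome 7 (112116019 to 112159482). Fzd3 lies on chromosome 14 (65192441 to 65262463), on which Wnt5a also lies (28504543 to 28527448), and Fzd5 on chromosome 1 (64730558 to 64737750). Wnt7b lies on chromosome 15 (85535437 to 85581821), Axin2 on chromosome 11 (108917828 to 108950783) and Lef1 on chromosome 3 (131110297 to 131224357).

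Promoter windows from 250 bases before to 50 bases after the annotated start were matched for 4 of the 9 genes, Sfrp2, Fzd5, Axin2 and Lef1, with 7 windows in all. The windows of Sfrp2 and Fzd5 are shown because both genes stood higher in the Tomato- and in the Fgf15-positive cells described below. They come from RefSeq (GRCm38.p6) and are written from 5′ to 3′ on the strand of the gene, with matches to the motifs searched in capitals.
Sfrp2, chr3:83766071-83766370, plus strand: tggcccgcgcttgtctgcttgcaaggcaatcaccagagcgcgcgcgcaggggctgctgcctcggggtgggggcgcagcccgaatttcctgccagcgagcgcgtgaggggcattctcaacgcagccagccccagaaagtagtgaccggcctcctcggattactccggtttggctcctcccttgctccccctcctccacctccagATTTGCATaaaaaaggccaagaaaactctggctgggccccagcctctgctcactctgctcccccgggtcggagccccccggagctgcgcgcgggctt
Fzd5, chr1:64737701-64738000, minus strand: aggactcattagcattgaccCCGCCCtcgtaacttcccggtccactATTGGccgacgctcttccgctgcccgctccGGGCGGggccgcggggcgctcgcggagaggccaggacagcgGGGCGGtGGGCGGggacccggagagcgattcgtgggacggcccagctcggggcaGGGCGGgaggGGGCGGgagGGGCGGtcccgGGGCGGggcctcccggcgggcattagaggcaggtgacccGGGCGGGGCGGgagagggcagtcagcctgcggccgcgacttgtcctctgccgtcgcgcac
The annotated span of Sfrp2 begins upstream of the start used for its window. The GC contents of the windows were 66% and 75.7%. The capitals in the Sfrp2 window mark 1 octamer motif, ATTTGCAT, 47 bases before the start, which 1.74% of 32851 mouse promoter windows hold on either strand. The capitals in the Fzd5 window mark 10 GC boxes (GGGCGG, some of which overlap), held by 35.7% of windows, and 1 CCAAT box (CCAAT), held by 37.4%. All motifs were searched on both strands, so the CCAAT box reads ATTGG as printed and 1 GC box reads CCGCCC. The core of the Tcf and Lef motif, CTTTGA, is held by 16% of windows. It was not found in the windows of Sfrp2, Fzd5 or Axin2, and 1 of the 4 Lef1 windows held 2 matches. Searches for an E-box (CACGTG, 7.15% of windows) and a TATA box (TATAAA, 13.6% of windows) gave a match for neither Sfrp2 nor Fzd5. Matches are letters only, and the octamer was added to the search after the Sfrp2 window had been read.

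Across the label, Sfrp2, Dkk3 and Fzd5 were lower in Tomato+ than in Tomato- cells, and Sfrp1 and Fzd3 differed by less than 2-fold. A gene is counted as lower or higher where its log2 ratio reaches 1 in size after 10 CPM is added to both levels as a pseudocount. Such ratios are smaller in size than those of plain CPM for genes at low levels. Of the 9 genes, 5 passed a filter of 5 or more counts in 10% or more of the cells of either group, and 3 of these 5 were lower and 0 higher in Tomato+ cells. Sfrp2 and Fzd5 passed through the Tomato- cells alone, so that this count is a description only. Among all 8356 genes that passed the same filter, 6.33% were lower and 3.51% higher. Without a filter the same 3 of 9 genes were lower, where 1.52% of 49399 genes were lower and 0.65% higher.

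Sfrp2 ran over single title numbers from 0.17 through a median of 1.32 to 30.0 CPM in Tomato+ and from 36.2 through 79.3 to 177.7 CPM in Tomato- cells. The title numbers of the groups did not overlap. Summed over cells, Sfrp2 stood at 5.79 CPM (95% exact Poisson interval 5.30–6.32, which covers counting error only, as do all intervals below) and at 81.3 CPM (79.5–83.1), a 14.03-fold difference. The Poisson intervals treat counts as independent and would be too narrow if the counts are reads rather than molecules, which is not stated. The log2 ratio was -2.53, against a standard deviation (SD) between title numbers of 0.64. Only 3.06% (exact Clopper-Pearson interval 1.48–5.55) of Tomato+ cells were positive, against 31.8% (27–36.8) of Tomato- cells. A few cells carried most of the Tomato+ signal, since 3 of them held 56.6% of its Sfrp2 counts. The 9 Fgf15-positive Tomato+ cells held 44.8%, and without them the level was 3.30 CPM. Title number 5 held 63% of the counts, and without it the Tomato+ level was 2.44 CPM, the difference 33.3-fold and the log2 ratio -2.88.

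Dkk3 ran from 112.4 through 122.2 to 207.6 CPM over Tomato+ title numbers and from 393.8 through 527.7 to 841.4 CPM over Tomato- title numbers, again without overlap. The summed levels were 142.4 CPM (139.9–144.9) and 542.2 CPM (537.5–547.0), with a log2 ratio of -1.86 (SD 0.32). Unlike Sfrp2, Dkk3 was found widely on both sides of the label, in 56.9% (51.3–62.3) of Tomato+ and 69.6% (64.6–74.3) of Tomato- cells.

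Sfrp1 ran from 14.4 through 35.2 to 87.8 CPM in Tomato+ and from 8.76 through 26.4 to 59.9 CPM in Tomato- title numbers, and the groups overlapped. The summed levels were 36.7 CPM (35.4–38) and 29.7 CPM (28.6–30.8), with a log2 ratio of 0.24, below the SD of 0.63. More Tomato+ cells were positive, 19.3% (15.1–24) against 11.9% (8.73–15.7), while the median count of a positive cell was 27 against 58.

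Of the receptors, Fzd5 ran from 0 through 0.27 to 5.44 CPM in Tomato+ and from 21.4 through 42.4 to 53.7 CPM in Tomato- title numbers, without overlap. The summed levels were 1.32 CPM (1.09–1.59) and 39.5 CPM (38.2–40.8), a 29.9-fold difference with a log2 ratio of -2.13 (SD 0.30). Positive cells made up 1.22% (0.33–3.10) of Tomato+ and 29.3% (24.6–34.3) of Tomato- cells, and 1 of the 4 positive Tomato+ cells was also Fgf15-positive. Fzd3 ran from 39.2 through 79.2 to 128.9 CPM and from 69.96 through 120.1 to 166.7 CPM, with overlap. Its summed levels were 83.6 CPM (81.7–85.6) and 118.6 CPM (116.4–120.8), a log2 ratio of -0.46 near the SD of 0.40. Its share of positive cells was 43.4% (38–49) in Tomato+ and 42.5% (37.4–47.8) in Tomato- cells.

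Cell titles also carry a row number from 1 to 40, and every row held kept cells of both groups. Tomato- cells had the higher CPM in 39 of 40 rows for Sfrp2, in 39 for Dkk3 and in 39 for Fzd5. For Fzd3 they did so in 25 rows and for Sfrp1 in 17. With each cell thinned to 94783 counts, at least 1 count of Sfrp2 was left in 6.46% of Tomato+ and 40.2% of Tomato- cells, compared with 10.4% and 44.8% before thinning. For Fzd5 the thinned shares were 2.72% and 38.04%, compared with 6.42% and 40.9%.

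Marker lists differed across the label as well. Of the 10 listed progenitor markers 0 were without counts in either group. Their summed level was 867.8 CPM (730.2–1221 over title numbers) in the Tomato+ group and 3575 CPM (2416–4378) in the Tomato- group. In the Tomato+ sum, Pax6 alone gave 720.4 CPM and the rest of the list 147.5 CPM. In the Tomato- sum the leading gene was Ccnd1, with 26.8%. The 12 ganglion cell markers summed to 21565 CPM (20118–23840) and 9688 CPM (7353–13210). The 8 mitotic markers summed to 78.2 CPM (6.96–316.04) and 3362 CPM (2498–4504), and the 8 S phase markers to 94.7 CPM (21.8–151.1) and 649.3 CPM (430.4–921.2). The 9 neurogenic precursor markers summed to 123.9 CPM (51.05–259.9) and 1031 CPM (719.5–1625), with 0 of these 3 lists' genes at 0. The 5 temporal markers went the other way, at 1592 CPM (935.6–2900) and 524.4 CPM (277.97–977.7), and Crabp1 gave 79.7% of the first sum. Photoreceptor markers summed to 130.7 CPM (51.3–341.98) and 481.0 CPM (313.8–809.2), and amacrine markers to 32.99 CPM (12.8–171.8) and 169.1 CPM (41.8–270.6). The 8 microglia or macrophage markers summed to 7.57 CPM (0.17–85.6) and 164.03 CPM (0.19–1029), with 58.6% of the second sum in 1 cell. Of the 8 endothelial markers, Kdr alone gave 6.18 CPM against 79.6 CPM, while the other 7 together gave 2.76 and 14.5 CPM. Kdr stood at 128.4 CPM in Fgf15-positive Tomato- cells. In such sums, fewer cells of a type and less RNA per cell cannot be told apart. The part of these markers in the differences over all cells was not tested, and the 3 marker-positive sets are compared next.

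**Figure D1:**
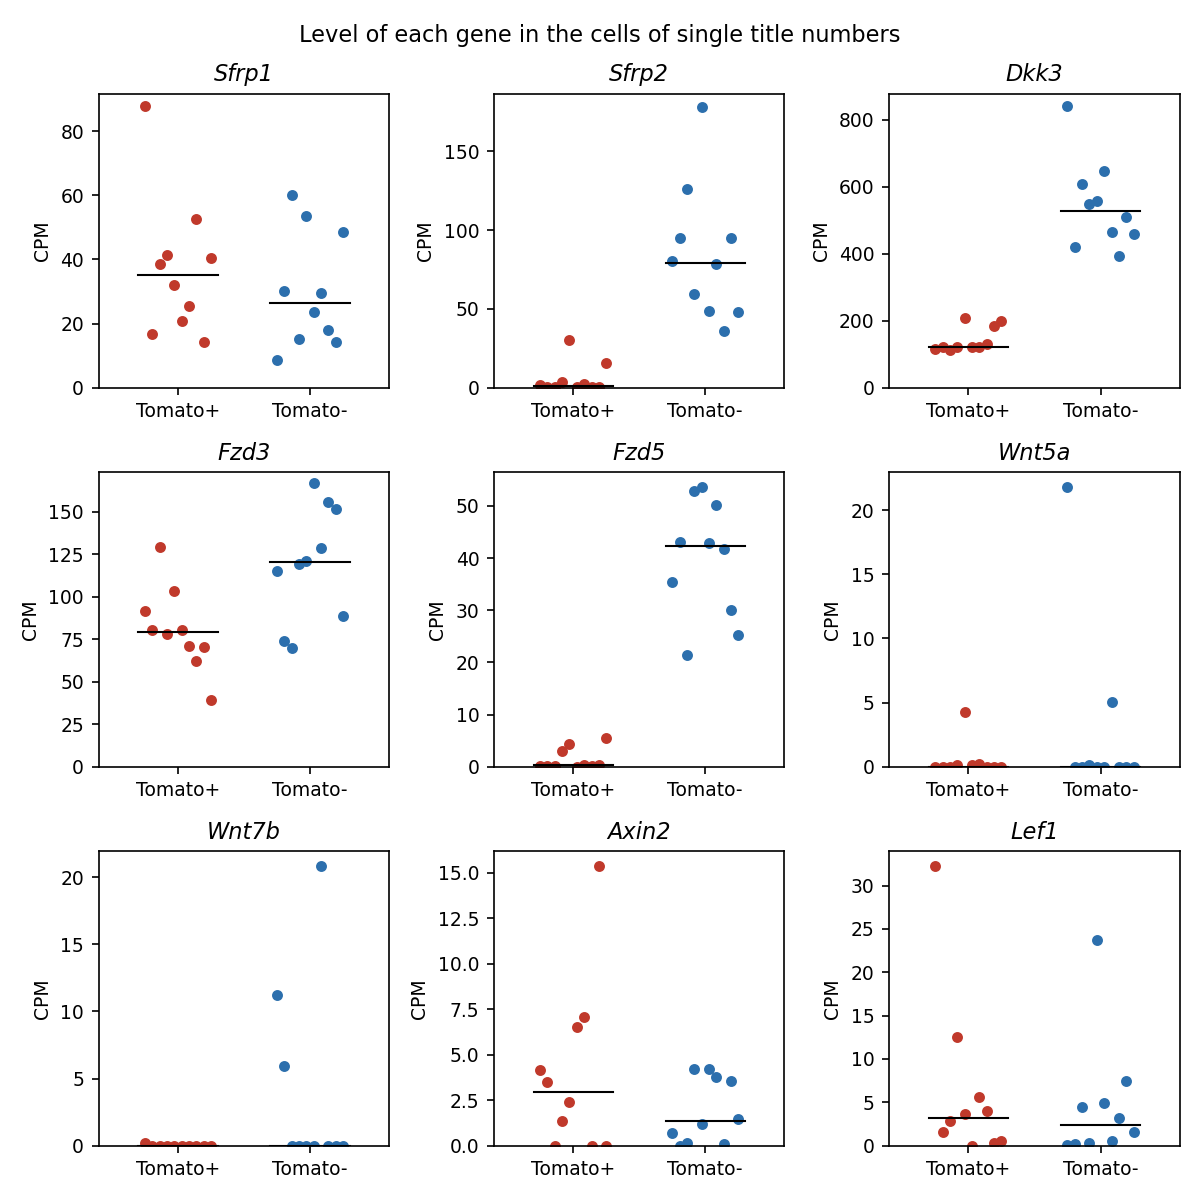
Levels of the 9 genes by title number. Each panel plots CPM from 0 upwards for 1 gene, each point is 1 title number (red, Tomato+; blue, Tomato-) and the line is the median of the 10 points. Sfrp2, Dkk3 and Fzd5 do not overlap between the groups, and most points of Wnt5a and Wnt7b lie at 0. The share of all genes without overlap was not computed.

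Within the Tomato- cells, levels were compared along the states marked by Fgf15, Atoh7 and Pou4f2, to ask where in the path from progenitor to ganglion cell each gene was found. Sfrp2, Dkk3 and Fzd5 were again lower, here in Pou4f2-positive against Fgf15-positive cells, and Fzd3 was at similar levels in both. Of the 5 genes that passed the filter, 3 were lower and 0 higher in Pou4f2-positive cells, where 8.58% of 8248 genes were lower and 6.68% higher. Those 3 passed in both states.

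Sfrp2 ran over title numbers from 65.6 through 139.2 to 248.2 CPM in Fgf15-positive cells, from 0 through 23.9 to 62.2 CPM in Atoh7-positive cells and from 3.64 through 8.73 to 27.1 CPM in Pou4f2-positive cells. The Fgf15-positive cells stood above both other sets without overlap, and the other two overlapped. Summed, the levels were 147.1 CPM (143.7–150.5), 32.5 CPM (29.5–35.8) and 13.1 CPM (11.8–14.4). The log2 ratio of Pou4f2-positive to Fgf15-positive cells was -2.77 (SD 0.62). Shares of positive cells followed the same order, with 48% (40.8–55.2), 26.1% (14.3–41.1) and 16.1% (9.32–25.2).

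Dkk3 ran from 598.6 through 814.4 to 1409 CPM in Fgf15-positive, from 254.3 through 491.7 to 945.1 CPM in Atoh7-positive and from 68.3 through 128.1 to 239.5 CPM in Pou4f2-positive cells. Here the first 2 sets overlapped and the Pou4f2-positive cells lay below both. The summed levels were 856.9 CPM (848.6–865.2), 580.5 CPM (567.5–593.7) and 158.6 CPM (154.1–163.2), with a log2 ratio of -2.36 (SD 0.49) between the ends. Most Fgf15-positive cells, 88.8% (83.5–92.8), were positive for Dkk3, as were 82.6% (68.6–92.2) of Atoh7-positive and 58.1% (47.4–68.2) of Pou4f2-positive cells.

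Fzd5 ran from 22.6 through 66.1 to 109.8 CPM in Fgf15-positive, from 0 through 15.52 to 86.99 CPM in Atoh7-positive and from 0 through 7.90 to 19.1 CPM in Pou4f2-positive cells. Atoh7-positive cells overlapped with both other sets, while Fgf15-positive and Pou4f2-positive cells did not overlap. The summed levels were 67.2 CPM (64.9–69.5), 31.6 CPM (28.6–34.8) and 8.05 CPM (7.07–9.13), with a log2 ratio of -2.10 (SD 0.55) between the ends. Positive shares were 45.4% (38.3–52.7), 28.3% (15.99–43.5) and 11.8% (6.05–20.2). Of the Atoh7-positive cells, 26 were also Fgf15-positive, and these held Fzd5 at 48.8 CPM. Cells positive for Atoh7 alone held it at 2.59 CPM (1.19 CPM without title number 19), below the 4.74 CPM of Pou4f2 alone. The middle level of Fzd5 thus came from the shared cells. In cells positive for Atoh7 alone, Sfrp2 stood at 23.3 CPM and Dkk3 at 520.9 CPM, between the other states. Without title number 20, which held 55.6% of these Sfrp2 counts, Sfrp2 stood at 14.1 CPM, near the 13.1 CPM of Pou4f2-positive cells. Dkk3 stood at 440.2 CPM without it.

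Fzd3 differed little between the ends. It ran from 45.03 through 126.3 to 195.9 CPM in Fgf15-positive and from 43.8 through 79.7 to 363.6 CPM in Pou4f2-positive cells, which overlapped. Its summed levels were 120.6 CPM (117.5–123.7) and 108.6 CPM (104.9–112.4), a log2 ratio of -0.14 within the SD of 0.75. Sfrp1 ran from 15.04 to 73.2 CPM and from 0 to 118.9 CPM over title numbers. It stood at 42.9 CPM (41.1–44.8) and 22.7 CPM (21.1–24.5), a log2 ratio of -0.69 within the SD of 1.17. Only 6 of the Pou4f2-positive cells were positive for Sfrp1, and 5 of 10 title numbers held none of its counts.

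Each Tomato- title number holds cells of both states, so the states could be compared within each. Pou4f2-positive cells were lower in 10 of 10 title numbers for Sfrp2 (log2 ratios -4.22 to -1.79), for Dkk3 (-3.64 to -1.31) and for Fzd5 (-3.08 to -0.88). For Fzd3 they were lower in 7 and higher in 3 title numbers, and for Sfrp1 lower in 8 and higher in 2. Where a single count sufficed to call a cell positive, the ratios shrank to -0.93 for Sfrp2, -0.80 for Dkk3 and -1.10 for Fzd5, so that 1 gene was counted as lower. The share of all genes called was not computed for that definition. The progenitor markers summed to 5573 CPM in Fgf15-positive, 3077 CPM in Atoh7-positive and 1624 CPM in Pou4f2-positive cells, and the ganglion cell markers to 4874, 2862 and 16865 CPM. Pax6 gave 58.7% of the progenitor sum in Pou4f2-positive cells.

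**Figure D2:**
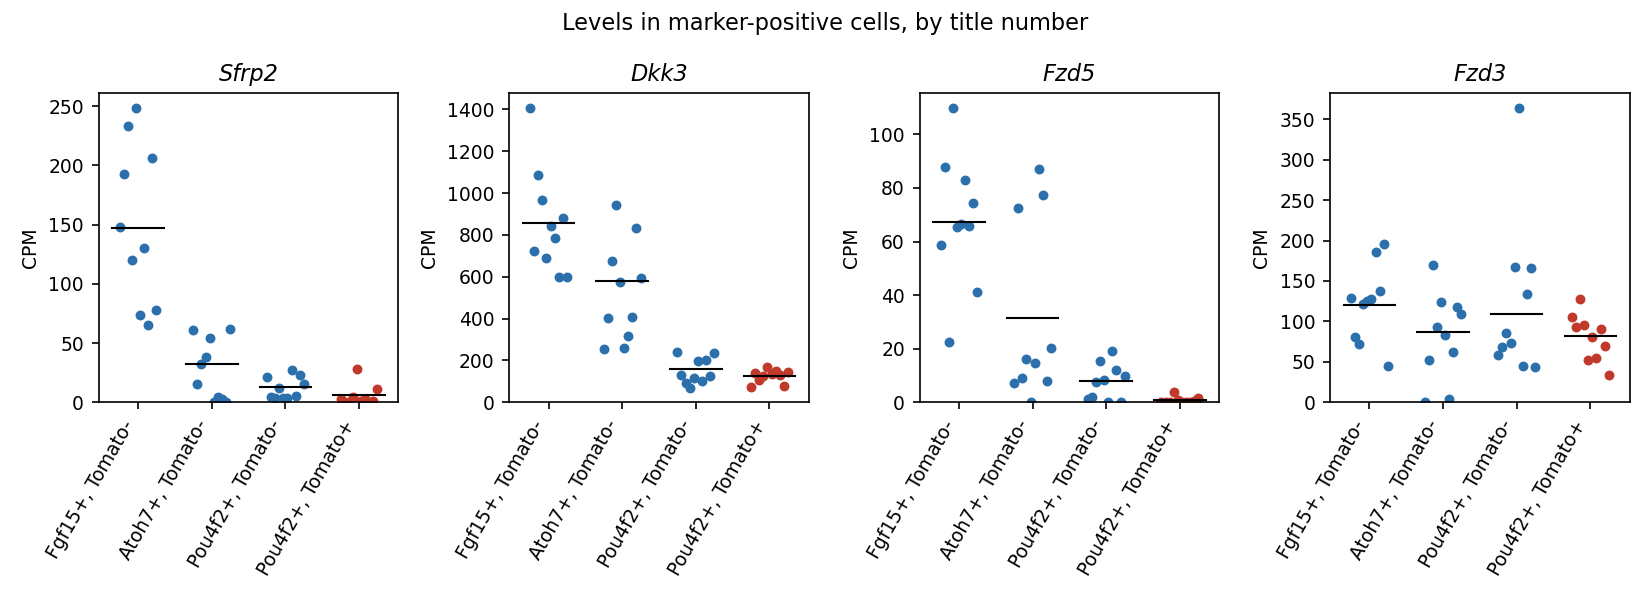
Levels in marker-positive cells. Each panel plots CPM from 0 upwards for 1 gene in 4 sets of cells, each point is 1 title number (blue, Tomato-; red, Tomato+) and the line is the level of the summed set. Sfrp2, Dkk3 and Fzd5 stand highest in Fgf15-positive cells (147.1, 856.9 and 67.2 CPM), and Fzd3 overlaps between all sets.

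**Figure D3:**
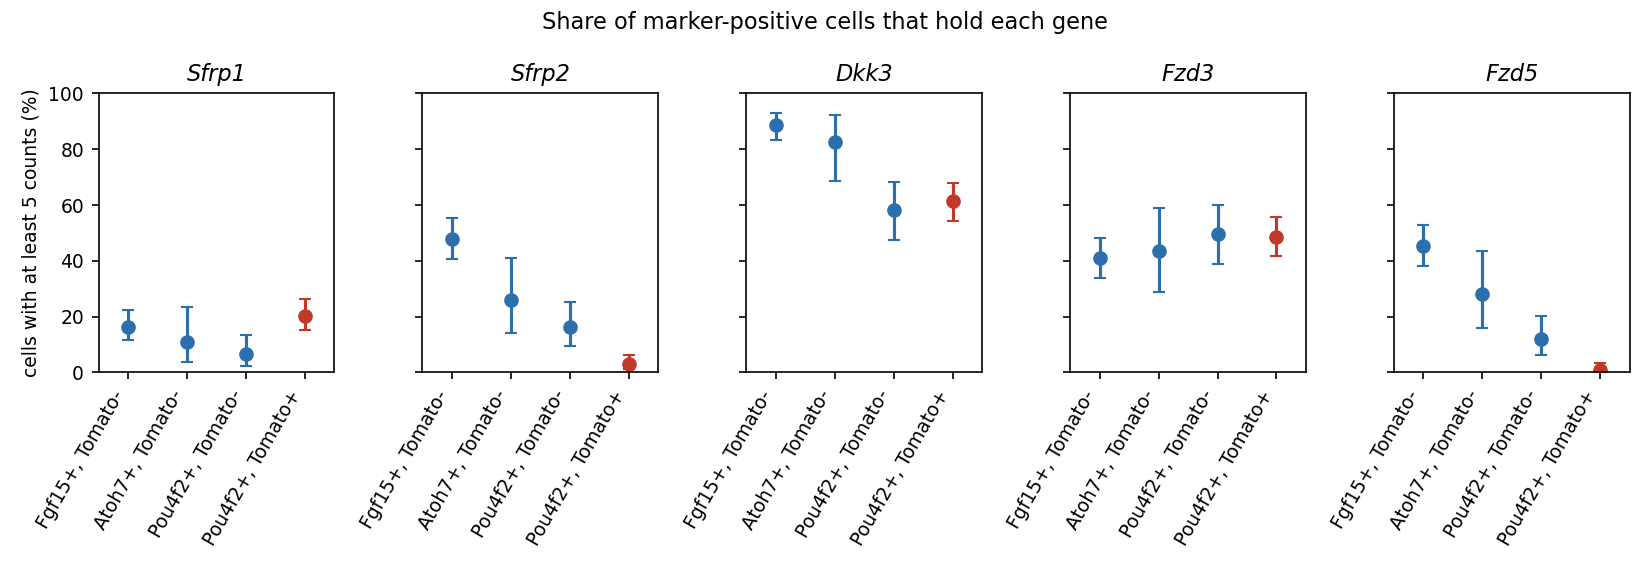
Share of cells with at least 5 counts of each gene, in percent, in the same 4 sets. Points are shares, bars are exact Clopper-Pearson 95% intervals for counting error, blue is Tomato- and red Tomato+. The share of Sfrp2-positive cells ran from 48% in Fgf15-positive Tomato- cells to 2.83% in Pou4f2-positive Tomato+ cells.

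Among the Fgf15-positive Tomato- cells, those that were also positive for Atoh7 (26 cells) differed from those with 0 Atoh7 counts. Sfrp2 stood at 36.02 CPM with Atoh7 and at 183.9 CPM without it. Fzd3 stood at 42.9 against 143.1 CPM and Fzd5 at 48.8 against 77.1 CPM. For Dkk3 the gap was smaller, at 669.0 against 925.7 CPM, and 96.2% and 89.9% of the cells were positive. Splitting by Top2a, a gene of dividing cells, was uninformative because only 7 of these cells had 0 counts.

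The 27 Tomato- cells positive for both Fgf15 and Pou4f2 lay between the single states for some genes. Their Dkk3 level was 238.7 CPM, between 1039 CPM in cells positive for Fgf15 alone of the 3 markers and 114.9 CPM for Pou4f2 alone (61 cells). For Fzd5 the values were 14.1, 84.2 and 4.74 CPM. The value of 4.74 CPM was 2.55 CPM without title number 17. Sfrp2, at 12.0 CPM, was near the 11.6 CPM of cells positive for Pou4f2 alone and far from the 202.7 CPM of those positive for Fgf15 alone, but without title number 11 it stood at 3.65 CPM in the double-positive cells. Doublets were not called, and the median total of the double-positive cells was 323132 counts.

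Within Pou4f2-positive cells, the label was compared to ask whether the genes differ between labelled and unlabelled cells that carry this ganglion cell marker. None of the 5 genes that passed the filter reached a log2 ratio of 1 in size, where 2.48% of 8545 genes were lower and 2.19% higher in Tomato+ cells. Sfrp2 and Fzd5 passed through Tomato- and Sfrp1 through Tomato+ cells alone. All 5 overlapped between title numbers of the groups. Fzd5 came nearest to the threshold, with title numbers from 0 through 0.18 to 3.90 CPM in Tomato+ and from 0 through 7.90 to 19.1 CPM in Tomato- cells. Its log2 ratio was -0.75 (SD 0.41), from summed levels of 0.75 CPM (0.54–1.00) and 8.05 CPM (7.07–9.13), the first of which was 0.37 CPM without title number 4. Sfrp2 followed with a log2 ratio of -0.55 (SD 0.60), from 5.74 CPM (5.15–6.38) and 13.1 CPM (11.8–14.4). Title number 5 held 62.4% of its Tomato+ counts, and without it the level was 2.47 CPM and the log2 ratio -0.89. Both ratios depended on the pseudocount at these low levels, and with 1 CPM in place of 10 CPM Sfrp2 and Fzd5 were counted as lower, Fzd5 at -2.37. The share of all genes called with 1 CPM was not computed.

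The shares of positive cells also differed within the Pou4f2-positive cells. Sfrp2-positive cells were 2.83% (1.05–6.06) of the Tomato+ and 16.1% (9.32–25.2) of Tomato- cells, and Fzd5 in 0.94% (0.11–3.37) and 11.8% (6.05–20.2). After thinning, at least 1 count of Fzd5 was left in 1.45% (0.30–4.18) and 17.4% (10.3–26.7), and of Sfrp2 in 5.31% (2.68–9.31) and 27.2% (18.4–37.4). Sfrp1 went the other way, with 20.3% (15.1–26.3) of Tomato+ and 6.45% (2.40–13.5) of Tomato- cells positive. Its levels were 36.8 CPM (35.3–38.4) and 22.7 CPM (21.1–24.5), a log2 ratio of 0.52 well within the SD of 1.20.

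Dkk3 and Fzd3 were found in similar shares on both sides. Dkk3 was positive in 61.3% (54.4–67.9) of Tomato+ and 58.1% (47.4–68.2) of Tomato- cells, with a log2 ratio of -0.31 (SD 0.48). Fzd3 was positive in 48.6% (41.7–55.5) and 49.5% (38.9–60.03), with a log2 ratio of -0.36 (SD 0.72). Progenitor markers were not at the same level in these sets, summing to 835.1 CPM (684.2–1039 over title numbers) in Tomato+ and 1624 CPM (555.8–2828) in Tomato- cells. Pax6 gave 85.9% and 58.7% of these sums, and the rest of the list gave 117.5 and 669.9 CPM. Mitotic markers summed to 42.1 CPM (6.94–165.8) and 533.9 CPM (32.8–1294). The part of these markers in the differences of Sfrp2 and Fzd5 was not tested. Without Fgf15-positive cells in either set, an alternative chosen after seeing the data, the count of genes lower in Tomato+ cells was 0. The count was 0 with these cells too, so it does not show how the ratios of Sfrp2 and Fzd5 moved.

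Labelled Pou4f2-positive cells varied among themselves in several of the 9 genes when split by Slc6a4, Ephb1, Eomes or Pou4f1. Fzd3 stood at 100.9 CPM in cells positive for Slc6a4 (88 cells) and at 59.4 CPM in cells with 0 Slc6a4 counts (94 cells). It stood at 88.4 CPM with Ephb1, a guidance receptor gene of uncrossed ganglion cells, and at 55.4 CPM with 0 Ephb1 counts (54 cells). Dkk3 stood at 135.5 and 119.01 CPM in the Slc6a4 split and at 124.4 and 152.7 CPM in the Ephb1 split. Fzd3 stood at 90.1 and 75.7 CPM in the Eomes split and at 78.2 and 79.5 CPM in the Pou4f1 split. All these Fzd3 differences are under 2-fold, with no replicate check. Sfrp2 was low, at 6.84 and 1.56 CPM by Slc6a4 and at 3.12 and 11.9 CPM by Ephb1. By Eomes it stood at 1.08 and 6.83 CPM and by Pou4f1 at 6.65 and 0.30 CPM. Without title number 5 the 6.84 and 6.65 CPM were 1.83 and 2.51 CPM. Lef1 stood at 4.05 and 0.11 CPM by Slc6a4 and at 4.13 and 0.15 CPM by Pou4f1, but at 1.64 and 3.38 CPM by Eomes.

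The ligands were found in single cells. Among Tomato- cells, 2 were positive for Wnt5a, a ligand mostly known for signalling without beta-catenin. Both were Fgf15-positive, and 1 of them held 78.5% of the Wnt5a counts in Tomato- cells. Among Tomato+ cells, 2 were positive for Wnt5a, with 38 and 7 counts, both from title number 5. Wnt7b, a ligand known for its part in vessel regression in the mouse eye, was found in 4 Tomato- cells. They held 34, 48 and 75 counts in 3 cells, and the remaining 1 held 57.2% of all Wnt7b counts in Tomato- cells. All 4 were Fgf15-positive and none was Pou4f2-positive. No Tomato+ cell was positive for Wnt7b (0 cells, which allows a share of up to 0.92% if taken as 3 cells of the set, and of up to 1.12% by the exact interval), and 1 cell held 2 counts. In 6 of 10 Tomato+ and 7 of 10 Tomato- title numbers Wnt5a had 0 counts.

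Axin2 and Lef1, the readouts of the beta-catenin branch, were also rare. Axin2 ran over title numbers from 0 through 2.94 to 15.4 CPM in Tomato+ and from 0 through 1.34 to 4.22 CPM in Tomato- cells. The groups overlapped, and 11 Tomato+ and 8 Tomato- cells were positive, or 3.36% (1.69–5.94) and 2.21% (0.96–4.31). Of the 11 Tomato+ cells, 8 were Pou4f2-positive and 6 were positive for Eomes, a factor of a subset of ganglion cells. Among labelled Pou4f2-positive cells, Axin2 stood at 10.4 CPM in Eomes-positive cells (88 cells) and at 0.44 CPM in cells with 0 Eomes counts (90 cells). The first was 7.21 CPM without title number 9 and the second 0.25 CPM without title number 6. Positive for Axin2 were 6.82% and 1.11% of these cells. In the Slc6a4 split, Axin2 stood at 1.78 CPM in positive cells and at 9.36 CPM in cells with 0 Slc6a4 counts. These levels were 1.11 CPM without title number 2 and 6.03 CPM without title number 9. The 8 Tomato- cells held 0 Eomes-positive ones, 4 Fgf15-positive and 3 Pou4f2-positive ones.

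Lef1 ran from 0 through 3.23 to 32.3 CPM in Tomato+ and from 0.10 through 2.36 to 23.7 CPM in Tomato- title numbers. The groups overlapped, and 9 Tomato+ and 13 Tomato- cells were positive. Of the 13 Tomato- cells, 11 were Fgf15-positive and 0 were Pou4f2-positive, which with 0 of 93 cells allows a share of up to 3.23% of Pou4f2-positive cells if taken as 3 cells, and of up to 3.89% by the exact interval. In Tomato+ cells, 5 of the 9 were Pou4f2-positive. The 3 with the most Lef1 counts had 0 counts of Pou4f2 and at least 78 counts of Pou4f1, a related ganglion cell factor. These 3 cells gave 69.3% of all Lef1 counts in Tomato+ cells.

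**Figure D4:**
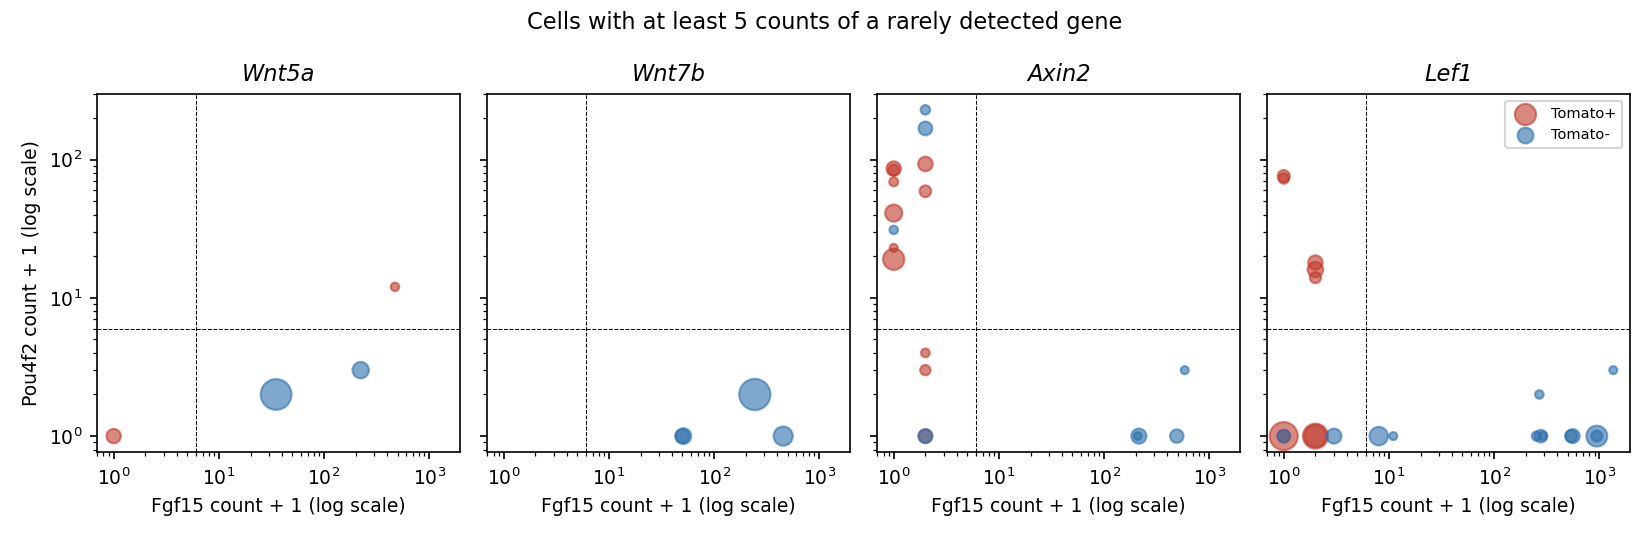
Cells positive for Wnt5a, Wnt7b, Axin2 or Lef1. Each point is 1 cell (red for Tomato+, blue for Tomato-), and its area grows with the count of the gene named above the panel. Both log axes give the cell's Fgf15 and Pou4f2 counts plus 1. Dashed lines are drawn at 5 counts, which is 6 on this scale, so that cells with 5 counts lie on them. The 4 Wnt7b cells and the 2 Tomato- Wnt5a cells lie to the right of the Fgf15 line.

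Fgf15, Atoh7 and Pou4f2 leave out 85 Tomato- cells that were positive for none of them. These cells held Sfrp1 at 3.85 CPM and Sfrp2 at 6.24 CPM, with 5.88% and 7.06% positive, and Sfrp1 stood at 1.86 CPM without title number 16. Their Fzd3 level, 140.1 CPM, was of the size seen in the other states. Among 20 Tomato- cells positive for Ptf1a, a factor of amacrine and horizontal cells, Dkk3 stood at 1026 CPM and Fzd3 at 214.2 CPM, but at 683.0 and 138.7 CPM without title number 11. Of those cells 50% were also Fgf15-positive, and 0 were positive for Sfrp1. In 24 cells positive for Crx, a photoreceptor factor, Dkk3 stood at 298.4 CPM and Fzd5 at 44.2 CPM, with 37.5% of them Fgf15-positive.

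Across the kept Tomato- cells, the genes most like Sfrp2, Dkk3 and Fzd5 were largely shared, as a description over cells that share library preparation and depth. For Dkk3 the highest Spearman correlations of CPM were with Fgf15 (0.55), the cyclin gene Ccnd1 (0.55), the Notch target Hes1 (0.52), Zfp36l1 (0.50) and Dek (0.50). For Sfrp2 they were Fgf15 (0.49), Zfp36l1 (0.45), Sparc (0.41), Hes1 (0.41) and Ccnd1 (0.40). For Fzd5 they were Zfp36l1 (0.49), Ccnd1 (0.45), Fgf15 (0.43), Myb (0.41) and Hes1 (0.41). Sfrp1 and Fzd3 had no gene at 0.3 or above. Between the genes themselves, Sfrp2 and Dkk3 correlated at 0.36, Dkk3 and Fzd5 at 0.33 and Sfrp2 and Fzd5 at 0.25, while Fzd3 stood between -0.09 and -0.02 with each of the other 4. Inside the Fgf15-positive cells, 54.3% of Sfrp2-positive and 37.3% of Sfrp2-negative cells were positive for Fzd5.

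The rest of the pathway was read from a list of Wnt genes in 8 roles, of which 36 passed the filter between Tomato+ and Tomato- cells. Of these 36, 5 were lower and 2 higher in Tomato+ cells, with a list median log2 ratio of -0.005 beside -0.04 for all genes tested. These shares were 13.9% and 5.56% of the list, beside the 6.33% and 3.51% of all genes tested. Sfrp2, Dkk3 and Fzd5 are 3 of the 5, and of the other 31 listed genes 2 were lower and 2 higher, 6.45% each. None of the 19 Wnt ligands passed the filter, and the highest share of positive cells for any ligand in Tomato+ cells was 2.75%, for Wnt3. Of the secreted inhibitors 3 of 13 passed and of the receptors and co-receptors 4 of 19, against 10 of 11 genes of cytoplasmic transduction.

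Beside Sfrp2, Dkk3 and Fzd5, the genes lower in Tomato+ cells were Ccnd1, a cyclin of dividing progenitors (24.3 against 956.7 CPM, log2 ratio -4.82), and Tcf7l2, a nuclear partner of beta-catenin (0.39 against 38.6 CPM, log2 ratio -2.23). Ccnd1 ran over Tomato+ title numbers from 1.55 through 7.81 to 145.2 CPM, and without title number 5 its ratio was -5.79. Apc, a scaffold of the complex that degrades beta-catenin, was higher (852.2 against 418.2 CPM, log2 ratio 1.01), and its ratio was 0.97 without title number 17. Lgr5, a receptor for R-spondins, was higher (30.0 against 9.41 CPM, log2 ratio 1.04), but without title number 2 its ratio was 0.57. Title numbers overlapped for both Apc and Lgr5.

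Between Pou4f2-positive and Fgf15-positive Tomato- cells, 6 of 36 listed genes were lower and 3 higher, with a list median of -0.02 beside -0.002 for all genes tested. Of the 31 listed genes that are not among the 9, 3 were lower and 3 higher, 9.68% each, near the 8.58% and 6.68% of all genes. Ccnd1 (-3.07), Tcf7l2 (-2.25) and the R-spondin receptor Lgr4 (-1.64) were lower, beside the 3 described above. Higher were Prickle2 (1.48) and Celsr3 (1.08), genes of planar polarity, and Porcn (1.07), the enzyme that attaches the lipid to Wnt proteins. The ratio of Celsr3 was 0.85 without title number 14 and that of Porcn 0.80 without title number 12. Within Pou4f2-positive cells, 1 of 35 listed genes was lower in Tomato+ cells, Ccnd1 (-2.99), and 1 higher, Lgr5 (1.51), with medians of -0.004 for the list and -0.02 for all genes. Each was 2.86% of the list, near the 2.48% and 2.19% of all genes.

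**Figure D5:**
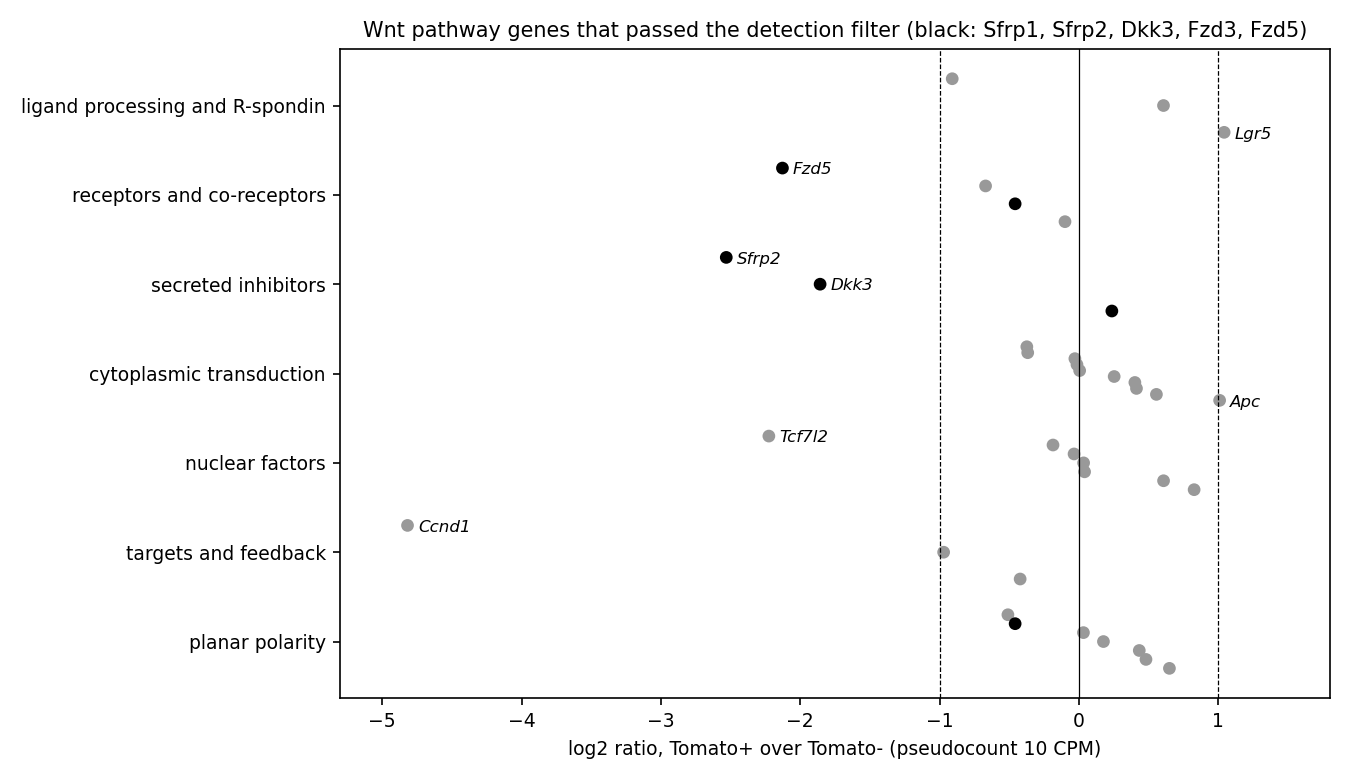
Log2 ratios of Wnt pathway genes between Tomato+ and Tomato- cells. Each point is 1 gene that passed the filter, rows are roles, dashed lines mark a log2 ratio of 1 in size, black points are 5 of the 9 genes described, and Fzd3 appears under both receptors and planar polarity. Points past the lines are named, 5 genes to the left and 2 to the right.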

How the data were processed

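The authors deposited whole-number counts per gene and cell, unnormalised, for 800 cells with headers ending in "umi". Whether these are molecules or reads is not stated. The median nonzero count was 16. The submitters' processing notes name Seurat 2.3, R 3.4.4 and mm10, while the aligner, counting tool and annotation are not given in the sources used here. The labels name SmartSeq2 and the series title C1. Of the columns, 1 had no match in the labels and stayed out. Cells below 1000 genes or above 20% mitochondrial counts were left out, and 0 cells failed on genes. Doublets were not called. Counts were summed per set, divided by the set's total to give CPM, and compared as log2 ratios with a pseudocount of 10 CPM. CPM is not scaled for transcript length, so levels of different genes are not compared. Thinning to 94783 counts, the 10th percentile of totals, left out 33 Tomato+ and 36 Tomato- cells. Symbols with more than 1 row (186 rows) were not compared.

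Groups come from the labels. The genes, lists and rules were chosen with earlier results of these data known. The 10% filter as background and the motifs were settled after values and windows had been seen. Beside the 9 genes, listed pathway genes past the filter with a log2 ratio of 1 in size were named, and the 5 genes most like each of them at a Spearman correlation of 0.3 or more. Eomes, Pou4f1 and Ephb1 values, Wnt3 and the single cells were picked out after their values were seen. Alternatives comprised other scaling (TMM, edgeR 4.0.16; median of ratios, DESeq2 1.42.0; R 4.3.3), pseudocounts, weighting, mitochondrial limits, definitions of a positive cell and leaving out title numbers. The calculation was tested on simulated data. Python 3.11.15, pandas 2.3.3, numpy 2.4.6, scipy 1.17.1 and matplotlib 3.10.9 were used.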

Additional observations from a re-analysis of the deposited data

How the results depend on the processing

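Of 828 ratios of the 9 genes recomputed under alternatives, 790 stayed within 1 SD between title numbers of the reported value. The other 38 did not, and no called ratio changed sign. Some of the 790 could not move, because leaving out title numbers of Tomato+ cells does not alter the comparison within Tomato- cells. Such ratios say nothing about stability. The count of genes lower in Tomato+ cells ran from 2 to 3 over 30 alternatives, at 2 with a pseudocount of 50 CPM, where Fzd5 was at -0.80. The count for Pou4f2-positive against Fgf15-positive Tomato- cells was 3 as reported and 1 where 1 count made a cell positive, and 4, with Sfrp1 at -1.01, for cells positive for 1 of the 3 markers alone. Within Pou4f2-positive cells the count of 0 became 2 with a pseudocount of 1 CPM and 3 (Sfrp2, Dkk3 and Fzd5) where 1 count made a cell positive. The cause was not tested. The share of all genes called was not computed for other pseudocounts or other definitions of a positive cell. These counts are therefore descriptions only. Leaving out each title number in turn gave counts of 3, 3 and 0, the same as reported. The second of these counts could change only through title numbers of Tomato- cells. TMM and median-of-ratios factors shifted the Tomato+ scale over all cells by 0.12 and 0.14 on the log2 scale, moved the log2 ratios of the 9 genes there by at most 0.11 and 0.13, and changed no count. Leaving out Fgf15-positive cells, chosen after seeing the data, gave 3 over all Tomato+ cells and 0 within Pou4f2-positive cells.

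Between Tomato+ and Tomato- cells, no paired analysis was possible because they share no title number and replicate numbers only name cells in accession order. The 2 states of Tomato- cells share title numbers and are compared within each in the report, as a description. With 1 pool per group, intervals cover counting error only, and levels of Wnt5a, Wnt7b, Axin2 and Lef1 rest on few cells. The Poisson intervals would be too narrow even for counting error if the counts are reads.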

Other observations

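Cells left out by the mitochondrial limit showed the same order for Sfrp2, Dkk3 and Fzd5 across the label. In 73 such Tomato+ and 38 such Tomato- cells, Sfrp2 stood at 2.82 and 47.2 CPM, Dkk3 at 121.4 and 228.8 CPM and Fzd5 at 1.04 and 15.45 CPM. Their median totals were 94705 and 88370 counts. Axin2 stood at 12.0 and 0 CPM there, with 2.74% of the Tomato+ cells positive. These few cells weigh heavily, since Sfrp2 stood at 0.84 CPM in Tomato+ without title number 2 and at 23.9 CPM in Tomato- without title number 18. Fzd5 stood at 0 CPM without title number 2 and at 9.20 CPM without title number 19, and Axin2 at 3.12 CPM without title number 10.

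Among the 9 Fgf15-positive Tomato+ cells, 8 were positive for Dkk3, 3 for Sfrp2 and 1 for Fzd5. Their progenitor markers summed to 2122 CPM and their ganglion cell markers to 14865 CPM, compared with 5573 and 4874 CPM in Fgf15-positive Tomato- cells.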
